A study of Mus musculus with 22 samples.

Results

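The genes described here encode 8 transporters that load glutamate or monoamines into synaptic vesicles or carry them across the plasma membrane. They were taken as a list of named genes, and all of their probe sets were read in all 22 single mouse retinal cells of the series. They comprise the vesicular glutamate transporters Slc17a6 (VGLUT2), Slc17a7 (VGLUT1) and Slc17a8 (VGLUT3), the vesicular monoamine transporters Slc18a2 (VMAT2) and Slc18a1 (VMAT1), the plasma membrane glutamate transporters Slc1a1 (EAAC1) and Slc1a2 (GLT-1), and the plasma membrane serotonin transporter Slc6a4 (SERT). Of the 8 genes, 7 were represented by 16 probe sets that list a single gene, out of 18193 genes on the array, and Slc17a8 was not analysed here. A gene was called detected in a cell at a MAS5 signal of 1000 or more. The 4 genes detected in at least 3 cells, Slc17a6, Slc18a2, Slc1a1 and Slc1a2, entered the tests with 7183 genes in all.

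The series profiled single cells of the mouse retina, each on its own Affymetrix array after papain dissociation, capillary picking, oligo dT priming and 35 cycles of PCR. Of the 13 ganglion cells, whose axons form the optic nerve, 3 were picked at E12.5, 1 at E13.5, 2 at E14.5, 3 at E15.5 and 4 at P0. The 3 photoreceptors were an adult rod and 2 cells of P0, and the 6 amacrine cells, mostly inhibitory interneurons, were 5 cells of P0 and 1 of E16.5. No treatment or allele is named, the strain CD1 is given for some cells and none for the others, and no animal or litter is named, so the spread between cells may lie within 1 animal. Cell types were assigned by the authors after profiling, by markers not given in the sources used here, and whether any transporter was among them is not stated.

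Vesicular transporters use the proton gradient across the vesicle membrane to concentrate transmitter inside the vesicle, and the vesicular glutamate transporter that a neuron expresses marks it as able to release glutamate. In the mature retina VGLUT1 is the form of photoreceptors and bipolar cells, VGLUT2 the form of ganglion cells, and VGLUT3 that of a class of amacrine cells. Plasma membrane glutamate transporters of the SLC1 family take glutamate up with sodium, and GLT-1 is present in astrocytes of the brain but in photoreceptors and bipolar cells of the mammalian retina. SERT and VMAT2 act in sequence in serotonin neurons, SERT taking serotonin up and VMAT2 packing it into vesicles. In the developing mouse, SERT is also known from ganglion cells that project to the same side of the brain, which do not make serotonin themselves.

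The sequences before the transcription starts of 4 genes are printed here, chosen by where the genes were detected. Slc17a6 and Slc18a2 were detected in ganglion cells and no other type, Slc1a2 mainly in photoreceptors and Slc17a7 in the adult rod alone. RefSeq windows were found for 7 of the 8 genes. Each line gives the 250 bases before an annotated start on GRCm38.p6, all on the plus strand, at chr7:51621580-51621829 and chr7:51624387-51624636 for the first and the second start of Slc17a6, chr19:59260628-59260877 for Slc18a2, chr7:45163671-45163920 for Slc17a7 and chr2:102706188-102706437 for Slc1a2. Capitals mark matches on either strand to any of 5 motifs: TAATCC (the core bound by CRX in photoreceptors), ATTAAT (the core bound by POU4F factors in ganglion cells), CCCNNGGG (EBF), GCCNNNGGC (AP-2) and GGGCGG (the GC box).
Slc17a6, first start: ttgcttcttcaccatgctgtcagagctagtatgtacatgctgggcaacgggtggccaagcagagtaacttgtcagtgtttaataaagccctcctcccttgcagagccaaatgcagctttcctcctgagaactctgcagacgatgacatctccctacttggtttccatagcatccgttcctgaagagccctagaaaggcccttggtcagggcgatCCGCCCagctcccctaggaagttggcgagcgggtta
Slc17a6, second start: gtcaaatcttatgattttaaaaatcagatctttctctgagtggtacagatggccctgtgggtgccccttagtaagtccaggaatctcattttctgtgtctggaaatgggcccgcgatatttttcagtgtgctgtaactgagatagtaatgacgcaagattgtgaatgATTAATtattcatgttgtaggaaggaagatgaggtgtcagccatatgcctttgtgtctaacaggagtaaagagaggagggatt
Slc18a2: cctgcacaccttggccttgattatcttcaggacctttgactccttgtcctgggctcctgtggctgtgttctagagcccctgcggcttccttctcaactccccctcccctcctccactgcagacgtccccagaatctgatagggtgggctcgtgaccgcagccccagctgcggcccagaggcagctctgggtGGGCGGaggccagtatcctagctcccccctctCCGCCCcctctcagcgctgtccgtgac
Slc17a7: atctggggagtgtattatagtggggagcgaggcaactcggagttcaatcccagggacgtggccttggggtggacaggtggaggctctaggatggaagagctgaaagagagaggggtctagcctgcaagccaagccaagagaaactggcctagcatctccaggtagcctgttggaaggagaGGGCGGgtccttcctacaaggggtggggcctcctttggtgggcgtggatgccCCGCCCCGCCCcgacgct
Slc1a2: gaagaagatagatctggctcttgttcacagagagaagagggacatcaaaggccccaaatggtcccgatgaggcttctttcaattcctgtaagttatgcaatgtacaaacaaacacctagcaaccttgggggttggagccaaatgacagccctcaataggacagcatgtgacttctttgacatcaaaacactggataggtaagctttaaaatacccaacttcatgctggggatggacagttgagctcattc
The POU4F core stood once, 83 bases before the second start of Slc17a6, and in 4.39% of all 32851 RefSeq windows of this length. The CRX core was in none of the 5 windows and in 6.25% of all windows. The EBF motif and the AP-2 motif were also in none of the 5, against 11.8% and 13.7% of all windows. GC boxes, found in 32.7% of all windows, numbered 3 before Slc17a7, 2 before Slc18a2 and 1 before the first start of Slc17a6, and the 2 boxes nearest the start of Slc17a7 overlapped by 1 base. These matches describe letters in the windows and show no binding.

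Slc17a6, which loads glutamate into vesicles, was the most regular ganglion cell gene of the list. Its signal was 11044, 7591 and 9824 in the ganglion cells E4, F3 and F6 of E12.5, 223 in A3 of E13.5, and 5483 and 967 in D8 and E1 of E14.5. It was 1440, 4082 and 4333 in B1, B5 and C7 of E15.5, and 3496, 5647, 3370 and 3562 in A3, C6, A6 and F1 of P0. The gene was thus detected in 11 of 13 ganglion cells, with E1 of E14.5 just under the detection threshold and A3 of E13.5 near the floor of 200 to which all lower signals were raised. In amacrine cells the signal was 11.1 in J6 of E16.5 and lay between 3.84 and 94.1 in the 5 cells of P0, and in photoreceptors it was 44.7 in the adult rod and 2.45 and 62.3 at P0. No amacrine cell or photoreceptor reached the floor. These signals are those of the brighter of its 2 probe sets. The other reached 1593 in E4 and 1138 in F3 of E12.5 and 412 or less in every other cell, so detection in the other 9 ganglion cells rests on a single probe set.

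By stage, the mean log2 signal of Slc17a6 was 13.19 ± 0.28 at E12.5 (SD, n = 3 cells), 7.80 in the single cell of E13.5, 11.17 ± 1.77 at E14.5 (SD, n = 2), 11.52 ± 0.89 at E15.5 (SD, n = 3) and 11.94 ± 0.35 at P0 (SD, n = 4). Cell E1 of E14.5 also held 7 of 10 progenitor markers and 3 of 10 photoreceptor markers (Crx, Otx2 and Prdm1), and their part in its levels was not tested. The highest mean was that of E12.5, and those of E14.5, E15.5 and P0 differed by less than the SD of E14.5 or of E15.5. Every P0 cell lay below every E12.5 cell, a log2 difference of -1.26 that has no test because it sets 1 stage against 1. The same separation downwards was shown by 3.48% of the 7183 genes tested.

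Among ganglion cells, E13.5 A3 was the one that lacked all 7 transporters. It held 8 of the 11 ganglion cell markers with a probe set, and 3021 genes were detected in it, near the median of 2996 over the 22 cells. The level of the lens crystallin Cryaa in the same cell was 5861, and the part of such transcripts in its low Slc17a6 was not tested. A cell with less Slc17a6 RNA and a cell whose Slc17a6 RNA was lost before amplification cannot be told apart on a single array.

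Slc18a2, which loads serotonin, dopamine, noradrenaline and histamine into vesicles, was found in 9 of 13 ganglion cells and in 0 of 9 other cells. Its signal was 47.7, 213 and 8843 in E4, F3 and F6 of E12.5, 284 in A3 of E13.5, and 4288 and 5425 in D8 and E1 of E14.5. It was 15795, 17734 and 55432 in B1, B5 and C7 of E15.5, and 24508, 6820, 201 and 8676 in A3, C6, A6 and F1 of P0. Ganglion cells therefore fell into a set at or near the floor (E12.5 E4 and F3, E13.5 A3 and P0 A6) and a set of 4288 or more, with none between 284 and 4288. In amacrine cells the signal was 336 in J6 of E16.5 and 2.31 to 129 in the 5 cells of P0, and in photoreceptors it was 63.1 in the adult rod and 45.8 and 94.2 at P0. Slc18a2 had 1 probe set, so all its detections rest on it.

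The stage means of Slc18a2 on the log2 scale were 9.50 ± 3.13 at E12.5 (SD, n = 3 cells), 8.15 at E13.5, 12.24 ± 0.24 at E14.5 (SD, n = 2), 14.61 ± 1.00 at E15.5 (SD, n = 3) and 12.01 ± 3.02 at P0 (SD, n = 4). The 3 cells of E15.5 stood highest as a group, but A3 of P0 lay above B1 and B5 of E15.5, so E15.5 and P0 overlapped. Cell C7, with the highest signal, also had the fewest detected genes of all 22 cells, 1517. All 3 cells of E15.5 carried embryonic globin Hbb-y, a blood transcript, at 57895 to 135824. The cells of E14.5 carried it too, at 23727 in D8 and 14517 in E1. The part of this transcript in the Slc18a2 levels was not tested.

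**Figure D1:**
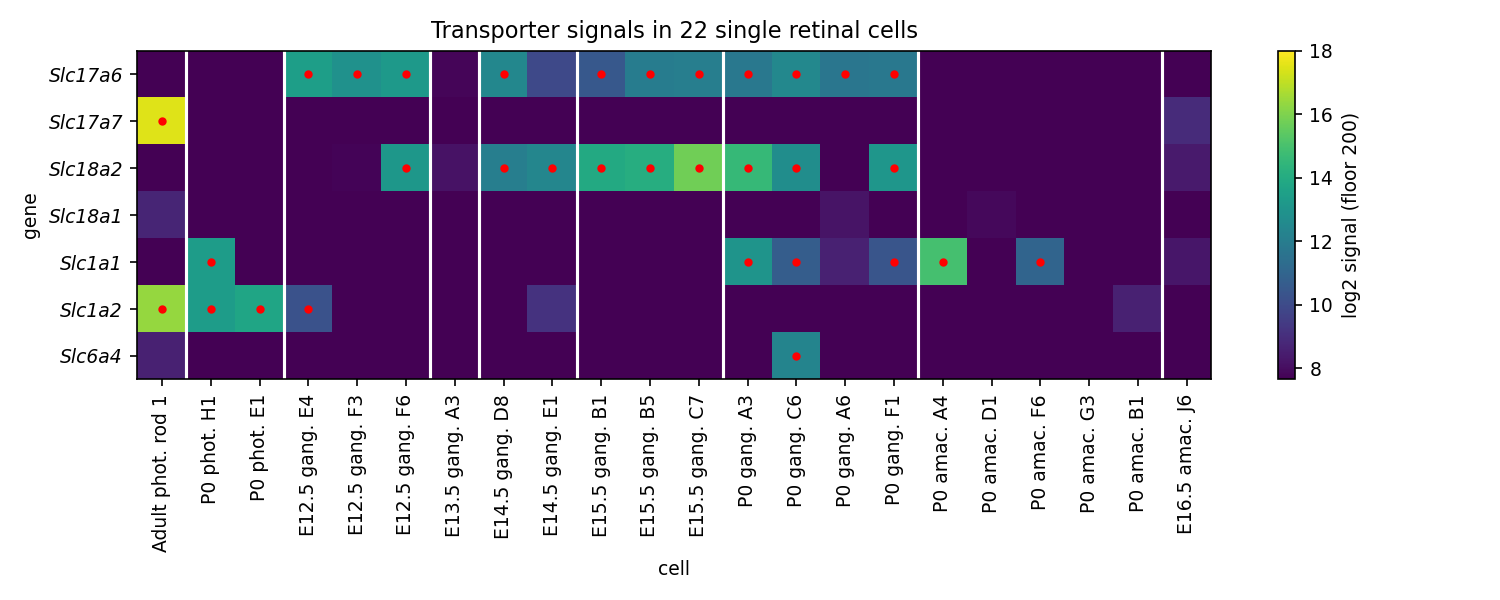
Log2 MAS5 signal (colour, floor 200) of the 7 transporters with a probe set in each of the 22 cells, with cells grouped by type and stage between white lines and red dots where the signal was 1000 or more. Slc17a6 and Slc18a2 carry dots in ganglion cells alone (11 and 9 cells), Slc1a2 in the 3 photoreceptors and ganglion cell E4 of E12.5, and Slc17a7 in the adult rod alone.

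Slc17a6 and Slc18a2 were detected together in 8 of 13 ganglion cells. Slc17a6 alone was detected in 3 cells (E12.5 E4, E12.5 F3 and P0 A6), Slc18a2 alone in E14.5 E1, and neither in E13.5 A3. Across all 22 cells the log2 signals of the pair had a Pearson correlation of 0.615, and across the 13 ganglion cells alone it was 0.0733. The points share cell type and array scale.

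**Figure D2:**
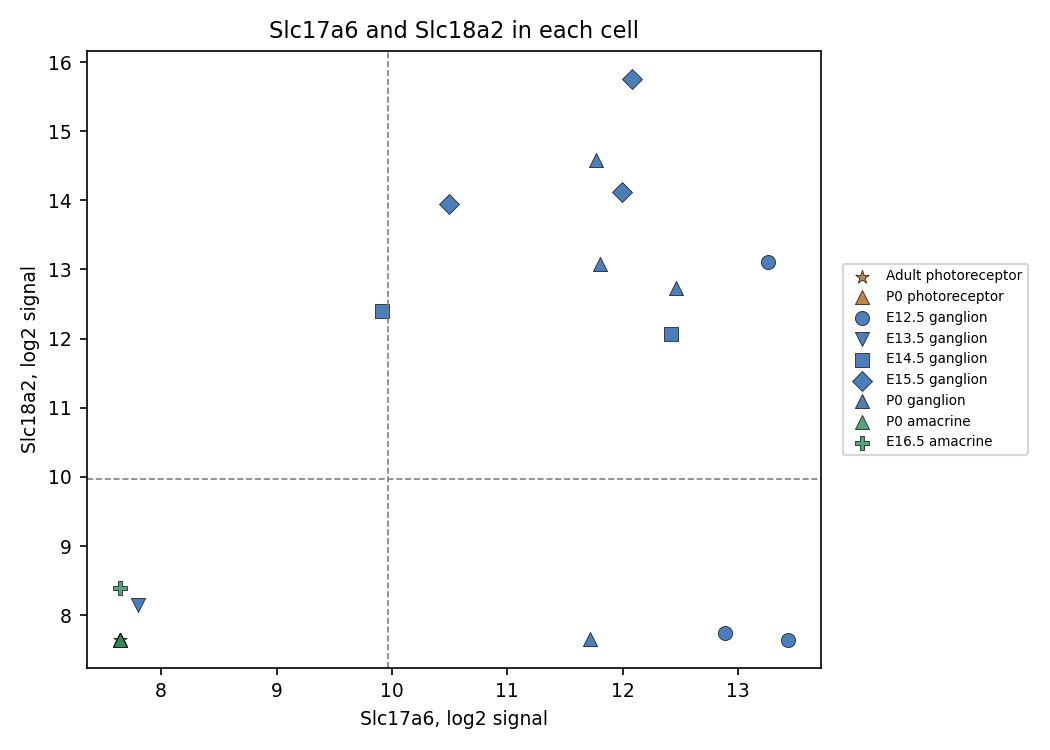
Log2 signal of Slc17a6 (horizontal axis) against Slc18a2 (vertical axis), 1 point per cell, coloured by type and shaped by stage, with dashed lines at the detection threshold of 1000. The 8 ganglion cells with both genes lie in the upper right, and the amacrine cells and photoreceptors, most of them superimposed at the floor, lie in the lower left.

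The contrast of ganglion with amacrine cells compared these neighbouring inner retinal neurons over all their stages. Cells of a type and stage were averaged on the log2 scale and the 9 averages fitted with limma, with 5 ganglion and 2 amacrine samples. The ganglion samples were of E12.5 to E15.5 and P0, and the amacrine samples of E16.5 and P0. Type and stage were therefore partly confounded here, as in the contrast of photoreceptors, sampled at P0 and in the adult. Slc17a6 averaged 11.12 in ganglion cells and 7.64 in amacrine cells, a log2 difference of 3.48 ± 1.37 (SE, 95% interval 0.80 to 6.17, limma adjusted p = 0.999). Slc18a2 averaged 11.30 in ganglion cells and 8.02 in amacrine cells, a difference of 3.28 ± 1.39 (SE, 95% interval 0.55 to 6.02, limma adjusted p = 0.999). Neither passed the threshold of 0.05 after adjustment over all genes. The unadjusted limma p was 0.0110 for Slc17a6 and 0.0186 for Slc18a2, ranks 75 and 128 of 7183. Both genes had met the filter of 3 detected cells only through ganglion cells, so a higher ganglion cell mean was built into these ranks. All P0 amacrine values of both genes were at the floor, so the size of these differences depends on it: for Slc17a6 it was 5.34 with a floor of 50 and 2.39 with a floor of 500. With the mean of both probe sets in place of the brighter one it was 1.98.

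In the same contrast 0 of the 4 transporters tested were higher and 0 lower, where 0.0418% of all genes tested were higher and 0.0278% lower. Slc1a1 differed by -0.77 ± 0.99 (SE, 95% interval -2.72 to 1.17) and Slc1a2 by 0.23 ± 1.35 (SE, 95% interval -2.42 to 2.88), both with a limma adjusted p of 0.999. The median difference of the 4 was 1.76, and that of all genes tested was -0.06.

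P0 is the stage at which all 3 cell types were sampled. There Slc17a6 was 4.29 higher and Slc18a2 4.37 higher on the log2 scale in the 4 ganglion cells than in the 5 amacrine cells, with no test since the stage gives 1 sample per type. Every P0 ganglion cell lay above every P0 amacrine cell for both genes, as for 1.66% of all genes tested, but ganglion cell A6 exceeded the floor for Slc18a2 by under 1 signal unit. Both genes had entered the tested set only through ganglion cells. With the mean over probe sets the difference of Slc17a6 within P0 was 2.15. Slc1a1 overlapped between these types, with a difference of 0.89 that ran from 0.11 to 2.19 when 1 cell was left out. Over all stages its difference had the opposite sign, -0.77, with every embryonic ganglion cell under the floor.

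Among all 18193 genes, 5 were detected in at least 11 of the 13 ganglion cells and in none of the other 9 cells, and Slc17a6 was 1 of them. The others were Cxadr, a cell adhesion protein, Ebf3, a transcription factor, Rbpms, an RNA-binding protein used to label ganglion cells, and S100a10. With at least 9 ganglion cells the set held 17 genes, Slc18a2 among them. These sets were formed on the signals themselves and carry no test.

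The genes whose log2 signal followed Slc17a6 most closely over the 22 cells were Cxadr (Pearson r = 0.927), Ebf3 (r = 0.859), S100a10 (r = 0.766), the growth cone protein Gap43 (r = 0.762) and the light neurofilament Nefl (r = 0.754). Those nearest to Slc18a2 were Nudcd2 (r = 0.797), Get1 (r = 0.753), Cend1 (r = 0.728), Cxadr (r = 0.709) and Bag2 (r = 0.706). Cxadr was the gene on both lists. Both transporters were detected in ganglion cells alone, so these correlations over 22 cells in part restate the separation of ganglion cells from the other types. The signals of a cell also share its amplification.

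Slc1a2 set photoreceptors apart from both inner retinal types. Its signal was 84066 in the adult rod, and 10583 in H1 and 13795 in E1, the photoreceptors of P0. In ganglion cells it was 1234 in E4 of E12.5, 567 in E1 of E14.5 and 127 or less in the other 11 cells. In amacrine cells it was 384 in B1 of P0, which is the array brought to the common scale, and 104 or less in the other 5. All 3 photoreceptors lay above all 19 other cells.

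In the contrast of photoreceptors with the mean of the other types, Slc1a2 averaged 14.96 in photoreceptors, 7.97 in ganglion cells and 7.74 in amacrine cells on the log2 scale. The difference was 7.11 ± 1.33 (SE, 95% interval 4.51 to 9.71, limma adjusted p = 4.23e-05), rank 14 of 7183 by p. Slc1a2 was the 1 transporter of the 4 tested to pass in this direction, and 1.5% of all genes tested were higher and 0.626% lower. The gene had met the filter of 3 detected cells only through the photoreceptors, with 1 other cell detected, so it had to differ here, and without the filter its limma adjusted p was 0.0228 over 18193 genes. It passed when any 1 of the 22 cells was left out, with a difference of 5.71 to 7.20. Without both the adult rod and amacrine cell J6, whose arrays stand apart, the difference was 5.66 with a limma adjusted p of 0.0559.

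The other 3 transporters did not pass in this contrast. Slc17a6 differed by -1.74 ± 1.34 (SE, limma adjusted p = 0.597), Slc18a2 by -2.01 ± 1.37 (SE, limma adjusted p = 0.557) and Slc1a1 by 0.43 ± 0.97 (SE, limma adjusted p = 0.864). The median of the 4 differences was -0.65, and that of all genes tested was -0.57.

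**Figure D3:**
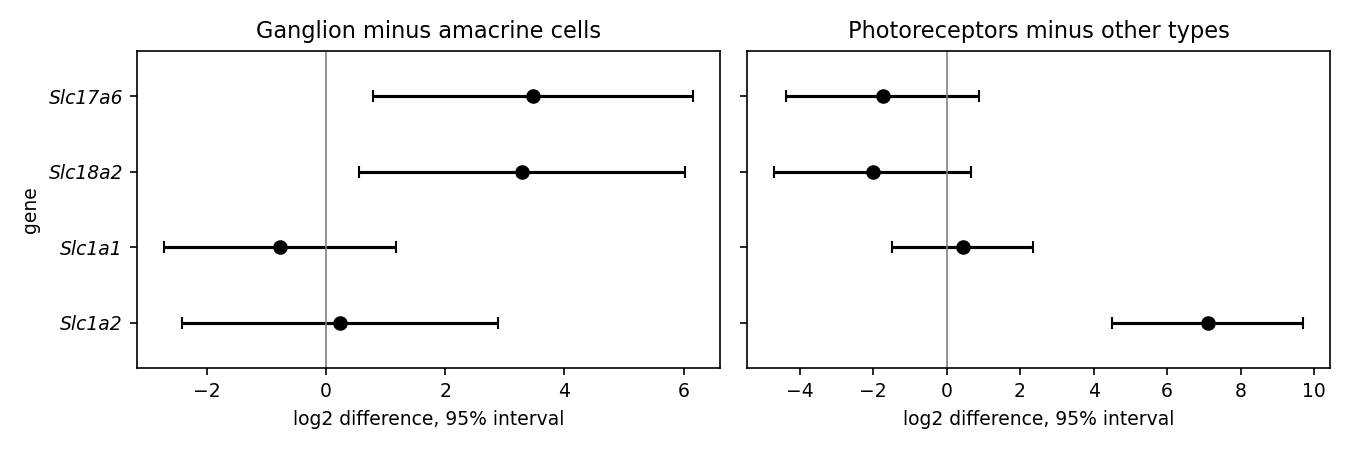
Log2 difference of the 4 tested transporters in the contrasts of ganglion minus amacrine cells (left) and photoreceptors minus the mean of the other types (right), from limma on 9 type-and-stage samples, with bars for 95% intervals. The interval of Slc1a2 against the other types, 4.51 to 9.71, is the one that passed after adjustment.

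Within P0, the 2 photoreceptors were 5.82 above the other types for Slc1a2 on the log2 scale, ganglion and amacrine cells weighing equally, with no test. With the mean over probe sets it was 1.14. Both photoreceptors lay above each of the 9 other P0 cells, as for 2.52% of all genes tested, a set that Slc1a2 entered only through photoreceptors. The adult rod was 2.80 above the P0 photoreceptors on the authors' scale but 0.26 above them after quantile normalization, so the difference between ages rests on how the arrays are scaled. The adult rod and the P0 photoreceptors share a cell type label only, and 1 adult cell has no replicate.

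Slc1a2 is a glial transporter in the brain, and glial markers were therefore read in the same cells. Of 10 glial markers, 0 were detected in photoreceptor E1, 4 in photoreceptor H1 (Glul at 9896, Rlbp1 at 8157, Clu at 8963 and Vim at 11382) and 2 in the adult rod (Clu at 246123 and Sox9 at 1237). The mean log2 level of the list was 7.64 to 9.87 over photoreceptors, 7.66 to 9.70 over ganglion cells and 7.78 to 9.22 over amacrine cells. The defining glial glutamate transporter Slc1a3 (GLAST) was at the floor in all 3 photoreceptors and was detected in 1 cell of the 22, amacrine cell D1 of P0 (5856). Clu itself passed in the photoreceptor contrast, higher by 5.94 ± 1.35 (SE, limma adjusted p = 0.00175), as did the horizontal cell marker Septin4, higher by 5.38 ± 1.39 (SE, limma adjusted p = 0.0106). Each was the 1 of 3 tested of its list to pass, where 1.5% of all genes tested were higher and 0.626% lower. The median difference was -0.93 over the glial list and -2.33 over the horizontal cell list. Clu was detected in 2 ganglion cells and 2 photoreceptors, so it met the filter of 3 detected cells only through the photoreceptors. In the adult rod Clu was at 246123 and Septin4 at 419128, but Clu was at the floor in E1 and Septin4 at the floor in H1. Septin4 was also detected in 4 ganglion and 2 amacrine cells. The part of both genes in the Slc1a2 difference was not tested. Photoreceptor E1 held 3 of 8 bipolar cell markers (Cabp5, Pcp2 and Lhx4), where the adult rod and H1 held 0, and H1 held 4 of 10 progenitor markers (Ccnd1, Sox2, Pcna and Mcm6). The part of these in the Slc1a2 of either cell was not tested.

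The photoreceptors held 8 to 9 of 10 photoreceptor markers. Over all genes, 21 were detected in 3 of 3 photoreceptors and in at most 1 of the 19 other cells, Slc1a2 among them. The 5 genes whose signal followed that of Slc1a2 most closely were Rbp3, which carries retinoids between cells (Pearson r = 0.969), the phototransduction regulator Pdc (r = 0.963), the rod transcription factor Nrl (r = 0.962), Plekhb1 (r = 0.959) and Tulp1 (r = 0.954). Each was detected in the 3 photoreceptors and nowhere else, so these correlations restate that separation over 22 cells.

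Probe sets of Slc1a2 did not all respond alike. Besides the probe set used, a second reached 1236 in the adult rod and 420 or less elsewhere. The other 3 stayed at 616 or less in all cells. A sixth probe set lists more than 1 gene and was left out. With the mean of all 5 probe sets in place of the brightest, Slc1a2 no longer met the detection filter and was not tested.

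Slc17a7, the vesicular glutamate transporter of mature photoreceptors, had a signal of 186080 in the adult rod, against 71.5 in H1 and 196 in E1, the photoreceptors of P0. It was 482 in amacrine cell J6 and 182 or less in every other cell, all from 1 probe set. Slc17a7 was 1 of 939 genes detected in the adult rod alone and ranked 222 among all genes of that cell. The log2 difference of adult rod over P0 photoreceptors was 9.86 on the authors' scale and 6.67 after quantile normalization, from 1 cell against 2 and with no test. Of the pair Slc17a7 and Slc1a2, both detected in the adult rod, Slc1a2 alone was detected in the photoreceptors of P0.

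**Figure D4:**
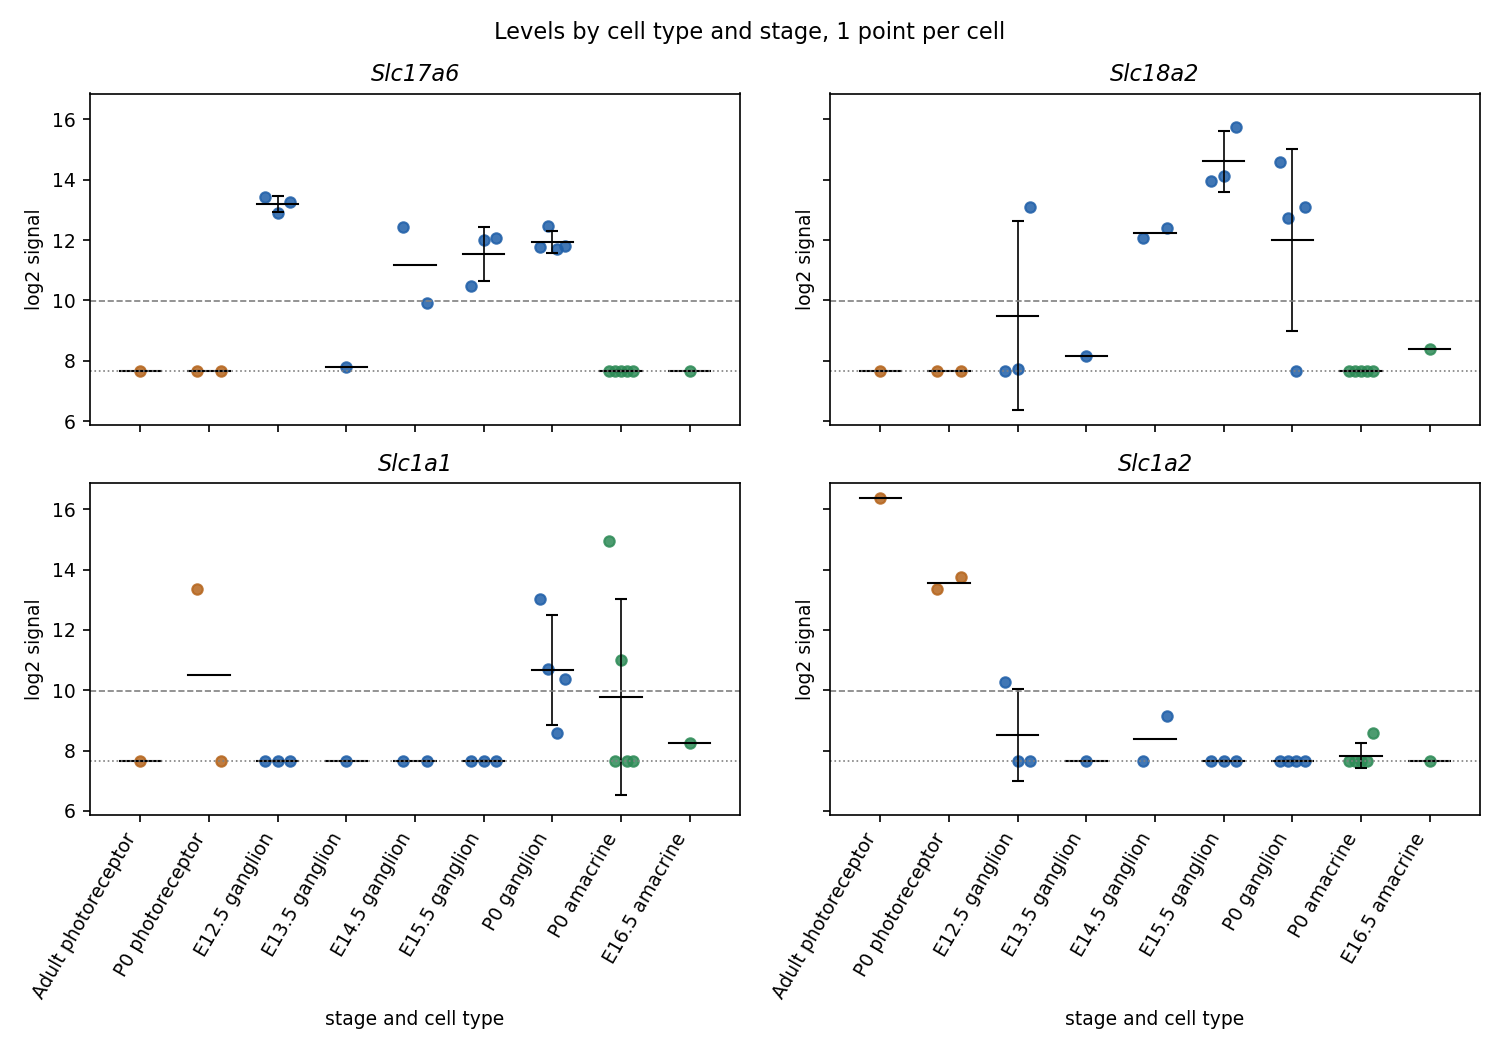
Log2 signal of Slc17a6, Slc18a2, Slc1a1 and Slc1a2 in each cell (points) by stage and type, with group means (black lines), SD for groups of 3 or more cells (bars), the detection threshold (dashed) and the floor (dotted). Slc17a6 is highest at E12.5 and Slc18a2 at E15.5, Slc1a1 is detected only at P0, and Slc1a2 is high in photoreceptors.

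Slc1a1, a neuronal carrier of glutamate and cysteine, was detected at P0 in all 3 cell types and at no other stage. In ganglion cells its signal was 18.1 to 82.8 at E12.5, 159 at E13.5, 76.1 and 51.2 at E14.5, 86.2 to 164 at E15.5, and 8287, 1671, 384 and 1321 in A3, C6, A6 and F1 of P0. All 4 ganglion cells of P0 were above the floor, and all 9 embryonic ones under it. Every P0 cell lay above every E12.5 cell, with a log2 difference of 3.02 and no test, a separation upwards shown by 2.59% of all genes tested.

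Among the other types Slc1a1 was patchy. In photoreceptors it was 68.6 in the adult rod, and 10441 in H1 and 4.36 in E1 of P0. In amacrine cells of P0 it was 31947 in A4, 2050 in F6, 120 in D1, 34.7 in B1 and 23.0 in G3, and in J6 of E16.5 it was 308. The 6 cells with Slc1a1 were therefore all of P0: 3 of 4 ganglion cells, 2 of 5 amacrine cells and 1 of 2 photoreceptors. P0 means on the log2 scale were 10.67 ± 1.82 in ganglion cells (SD, n = 4), 10.50 ± 4.03 in photoreceptors (SD, n = 2) and 9.78 ± 3.24 in amacrine cells (SD, n = 5), which did not differ beyond their spread.

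The photoreceptor contrast of Slc1a1 turned on 1 cell. Without H1 its difference was -0.99, with a limma adjusted p of 0.503. The other 2 probe sets of the gene reached 404 at most, so detection rests on a single probe set. The genes nearest to Slc1a1 over the 22 cells were Ankrd12 (Pearson r = 0.903), Dock9 (r = 0.873), Ccdc82 (r = 0.826), Ipmk (r = 0.796) and Usp16 (r = 0.791), and Ankrd12 was detected in 5 cells, all of them with Slc1a1.

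Slc6a4, which takes serotonin back into cells, was detected in ganglion cell C6 of P0, at 5057. The other 3 ganglion cells of P0 and the 9 embryonic ones stayed at 139 or less, the adult rod was at 387, and the P0 photoreceptors and all amacrine cells were at 185 or less. C6 was also the cell with most transporters, 4 of 7: Slc17a6 (5647), Slc18a2 (6820), Slc1a1 (1671) and Slc6a4. Slc6a4 was 1 of 60 genes detected in C6 alone and ranked 1419 among the genes of that cell. Detection of Slc6a4 rests on 1 probe set.

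Genes of ganglion cell laterality, which decide whether an axon crosses the midline, were read beside it. Ephb1, the guidance receptor of uncrossed axons, was detected at 7802 in C6 and in 3 other ganglion cells, at 1557 in F1 of P0, 3834 in F6 of E12.5 and 5337 in B1 of E15.5. Nrp1, a receptor of crossing axons, was at the floor in C6 and also in A3 and A6 of P0. It was detected in F1 of P0 at 4052 and in 9 of 13 ganglion cells in all. Plxna1, a semaphorin receptor, was detected in C6 at 3644 and in 8 of 13 ganglion cells, and in all 6 amacrine cells. Zic2, the transcription factor of uncrossed cells, was at the floor in C6 and undetected in all 22 cells. Of the 10 genes of this list, C6 held 2, Ephb1 and Plxna1. Boc, Zic1, Zic5, Isl2, Nrcam and Sema6d were also undetected in it. Ephb1 was also detected in 2 amacrine cells, D1 of P0 (30863) and J6 of E16.5 (1341), and 1 cell with Slc6a4 gives no comparison.

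Slc18a1, the vesicular monoamine transporter of endocrine cells, was undetected in every cell. Its 3 probe sets reached 421 in the adult rod, 303 in amacrine cell J6 and 244 in ganglion cell E4 of E12.5.

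The enzymes that make monoamines were mostly undetected beside Slc18a2. In the 13 ganglion cells the serotonin enzymes Tph1 and Tph2, the shared enzyme Ddc, the cofactor enzyme Gch1, the histamine enzyme Hdc and the dopamine carrier Slc6a3 were all undetected. Other enzymes of the same cofactor were detected in some of them, Qdpr in 7, Pcbd1 in 6 and Pts in 5 of the 13. Th, the first enzyme of dopamine synthesis, was at 4155 in E1 of E14.5, a cell with Slc18a2 at 5425, and at 1692 in amacrine cell F6 of P0, where Slc18a2 was 68.2. The adult rod had Tph1 at 1799 and Dbh at 1628, on an array above the floor in 55.0% of genes. The ganglion cell marker Pou4f3 and the horizontal cell marker Onecut1 stood at a like level there, 1764 and 1761. Of 15 genes of monoamine synthesis and breakdown with a probe set, 5 were tested and none passed in either contrast. Maoa, which breaks monoamines down, was detected in 3 ganglion and 2 amacrine cells and differed by -1.62 ± 1.05 between these types (SE, limma adjusted p = 0.999).

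Other vesicular transporters gave 1 call. Sv2b, a synaptic vesicle glycoprotein, was 6.69 ± 1.42 higher in photoreceptors than in the other types (SE, limma adjusted p = 0.000648), with 476836 in the adult rod, 1515 in H1 and 7439 in E1. It was also detected in 3 ganglion cells, at 1600 in F6 of E12.5, 4288 in A3 of E13.5 and 4909 in C6 of P0, each above H1. The array of the adult rod stands apart from most others. Sv2b was 1 of 5 tested of 8 listed, where 1.5% of all genes tested were higher and 0.626% lower, and the median difference of the 5 was 0.58. None of the 5 passed between ganglion and amacrine cells. Slc18a3, the acetylcholine loader of starburst amacrine cells, was detected in 3 amacrine cells and no ganglion cell and differed by -3.27 ± 0.85 (SE, limma adjusted p = 0.0845). It met the filter of 3 detected cells only through amacrine cells.

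Glutamate supply was read from 10 genes, of which 7 were tested. Slc38a3, a glutamine carrier, was higher in photoreceptors than in the other types by 5.80 ± 1.28 (SE, limma adjusted p = 0.00116), with 104758 in the adult rod and 20713 in E1 but a value at the floor in H1. It was detected in 1 other cell, a ganglion cell, and so met the filter only through the photoreceptors. It was the 1 of 7 that passed, where 1.5% of all genes tested were higher and 0.626% lower, and the median difference of the list was -2.13. The glutamine carriers Slc38a1 and Slc38a2 were detected in 18 and 19 of 22 cells, and neither passed in any contrast.

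Of the 5 other SLC1 carriers, Slc1a4 was the one tested. It was detected in 6 ganglion cells, 1 photoreceptor and no amacrine cell and differed by 2.94 ± 1.40 between ganglion and amacrine cells (SE, limma adjusted p = 0.999). Slc1a7, the retinal glutamate transporter EAAT5, was at 1001 in the adult rod, 5575 in H1 and at the floor in E1. Slc1a6 was detected in ganglion cell A3 (6005) and amacrine cell B1 (13458) of P0. Of the 4 other monoamine uptake carriers with a probe set, Slc29a4 was the one tested, detected in 8 ganglion cells and 2 amacrine cells with a difference of 1.20 ± 1.40 (SE, limma adjusted p = 0.999).

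The proton pump that energises vesicular loading was present in most cells. All 15 of its genes with a probe set were tested, and cells held 5 to 14 of them among ganglion cells and 6 to 14 among amacrine cells. Photoreceptors E1 and H1 held 12 and 10, and the adult rod held 1, Atp6v0e2, at 218208. Atp6v1g1 was lower in photoreceptors by -4.46 ± 1.36 (SE, limma adjusted p = 0.0486), with the adult rod and H1 at the floor and E1 at 21922. It was the 1 of 15 that passed in that contrast, where 1.5% of all genes tested were higher and 0.626% lower. The median difference of the 15 there was -1.36, and that of all genes tested was -0.57. No pump gene passed between ganglion and amacrine cells, where the median difference was -0.09.

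Of 5 partner proteins of glutamate transporters with a probe set, 3 were tested and none passed in either contrast. Of the 10 laterality genes, 5 were tested and none passed, with Nrp1 at 3.42 ± 1.42 between ganglion and amacrine cells (SE, limma adjusted p = 0.999).

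Markers of the labelled types were read in all cells, with labels that the authors assigned after profiling, so that how the labels were made may fix these counts. Ganglion cells held 5 to 10 of 11 ganglion cell markers and at most 1 of 11 amacrine markers, and amacrine cells held 3 to 6 amacrine markers and at most 4 ganglion cell markers. Photoreceptors held 1 to 3 amacrine markers, 1 to 3 ganglion cell markers and 0 to 3 of 7 horizontal cell markers. Among these, Gad1 was at 15552 in photoreceptor E1 and 9039 in the adult rod. The part of such transcripts in the Slc1a2 of these cells was not tested. Lens and blood transcripts were found in ganglion cells of E13.5 to E15.5 and in no amacrine cell, and their part in the differences between ganglion and amacrine cells was not tested. Detected genes numbered 1517 to 4351 in a cell. The adult rod and amacrine cell J6 had median signals of 192 and 198, against 32.9 to 79.1 in the other 20 cells, and stood above the floor in 55.0% and 57.9% of genes, against at most 37.2%. The highest correlation between arrays was 0.665, so none was a copy.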

How the data were processed

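Single mouse retinal cells were hybridised to Affymetrix mouse arrays. The deposited values are signal intensity that the authors computed with MAS5, per the labels' design text; its version is not given in the sources used here. In 21 of 22 arrays the 2% trimmed mean was 500. P0 amacrine cell B1 had 18.1 and was multiplied by 27.6. Signals were raised to 200 and log2 transformed, and the probe set with the highest mean stood for each gene. Cells of a type and stage were averaged into 9 samples and fitted with limma 3.58.1 in R 4.3.3 (eBayes with trend, 6 residual degrees of freedom), with Benjamini-Hochberg adjustment over 7183 genes. The prior degrees of freedom were infinite, so each spread came from the trend. The fit was tested on simulated data. The number of arrays limits precision, and PCR may distort levels.

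The named transporters and gene lists were chosen with earlier results of these data known. All probe sets of the transporters were read, and the text names the transporters with the 5 genes most correlated with each tested one, and list members that passed or had large differences. Untested list members were named after their values were seen. RefSeq windows and names are those of GRCm38.p6. Alternatives covered the floor, scaling, probe sets, filter, variance model, unit of the fit, arrays that stand apart and each cell left out.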

Additional observations from a re-analysis of the deposited data

Results flagged for a closer look

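Outlying cells were sought in the 8 gene and group combinations with 4 or more cells and any spread, and 5 showed 1 cell far from the others. Chance flags about 1 in 20 such groups, but where all other cells stand at the floor, any cell above it is flagged. Slc17a6 in P0 ganglion cell C6 was 12.46 on the log2 scale (signal 5647), and the other 3 ganglion cells of P0 lay between 3370 and 3562. In the same cell Slc6a4 was 12.30 (signal 5057) with the other 3 at the floor. The remaining flags were near the floor: Slc18a1 at 8.20 (signal 294) in P0 ganglion cell A6, Slc18a1 at 7.86 (signal 232) in P0 amacrine cell D1, and Slc1a2 at 8.58 (signal 384) in P0 amacrine cell B1.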

How the results depend on the processing

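No transporter passed between ganglion and amacrine cells in any of the 13 other settings or with any of the 22 cells left out. For Slc17a6 the lowest limma adjusted p was 0.0994 and for Slc18a2 0.121, both with cells fitted with type and stage as a random block. Slc1a2 passed between photoreceptors and the other types (1 transporter) in 10 of 12 other settings and with each cell left out. The number passing was 0 with the mean over probe sets, where Slc1a2 was not tested, and 0 without J6 and the adult rod. The Slc1a1 difference in that contrast, 0.43, was -0.16 with a floor of 50 and ran from -0.99 without H1 to 1.86 over left-out cells; the cause was not tested. Among all genes, 5 passed between ganglion and amacrine cells. The number was 1 with a floor of 500, the mean over probe sets, every probe set, without J6 and the adult rod, or without the E14.5 cells, 3 without B1, 10 with quantile normalization, 11 with ganglion and amacrine cells only, 21 with the random block and 31 with no filter, and 1 to 9 with a cell left out. In the photoreceptor contrast 153 passed. The number was 27 without J6 and the adult rod, 44 with the mean over probe sets, 56 with no filter and 99 without the E14.5 cells, and 45 to 161 with a cell left out. At detection thresholds of 500 and 2000, chosen after seeing the data, Slc17a6 was detected in 12 and 10 cells, Slc18a2 in 9 and 9, Slc1a1 in 6 and 4, and Slc1a2 in 5 and 3. No paired analysis was possible because the labels pair no cells across groups. With 2 amacrine and 2 photoreceptor samples, differences that miss the threshold do not show equal levels.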
